A study of Mus musculus with 8 samples.

Results

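The genes described here are 53 DNA replication and S-phase genes of the mouse, chosen by name as components of the replication machinery and its regulators. A probe set of the array belonged to them if the platform's annotation gave it 1 of these symbols, and of several probe sets of a gene the one brightest on average stands for it. Of the 53 genes, 52 had a probe set, among 18194 genes named on the array, and Chaf1a is not analysed here. The gene for the catalytic polymerase epsilon subunit, Pole, was too dim to be tested, which left 51 tested genes among 14598.

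RNA was measured on 8 Affymetrix arrays of sorted mouse mammary epithelial cells, with 2 biological replicates in each of 4 groups. Wildtype (WT) glands and glands carrying the germline C/EBPb-/- knockout (KO) were each sorted into LIN-CD24+CD29hi cells (CD29hi) and LIN-CD24hiCD29lo cells (CD29lo). Per the labels' protocols the glands came as 2 paired sets with 10 mice per group, so an array stands for pooled animals, and the RNA was amplified before labelling. The sources used here do not give the age of the mice, the deleted part of the gene or the purity of the sort.

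Before S phase, the origin recognition complex, Cdc6 and Cdt1 load the MCM2-7 helicase onto DNA, and geminin (Gmnn) blocks reloading. In S phase Cdc45 and the GINS complex switch the helicase on, primase and the DNA polymerases copy the strands, and the clamp PCNA with its loader RFC keeps the polymerases on the template. Transcription of many of these genes is raised at the G1/S border by E2F factors, so their RNA serves as a measure of cycling cells in a tissue. C/EBPb is a transcription factor known for its part in ductal and alveolar growth of the mammary gland, and CD29hi and CD29lo sorts are commonly used to enrich basal and luminal epithelial cells.

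Promoters of these genes were searched for the letters that E2F factors are known to bind. RefSeq promoters (assembly GRCm38.p6, 250 bases before to 50 bases after the gene's start) were at hand for 42 of the 53 genes. Of several promoters of a gene only the first listed was searched. This concerned 5 of the replication genes, Dnmt1, Fen1, Lig1, Mcm7 and Uhrf1. Both strands were searched for the E2F words TTTCCCGC, TTTCGCGC, TTTGCCGC and TTTGGCGC. Such a word stood in 13 of the 42 promoters (31.0%), against 626 of 27018 genes with a promoter in the same table (2.32%). Among promoters with a GC content of at least 50% the shares were 32.4% for the replication genes and 3.39% for all genes. By role, the word was found in 4 of 5 promoters of the MCM2-7 helicase, in 3 of 4 of origin licensing and in 3 of 5 of the polymerases and primase. Repair and checkpoint genes had it in 2 of 6 and clamp genes in 1 of 4, and the other roles had 0 matches. A count of 0 holds only for the window searched, as the listed starts were not checked and other promoters were not searched. A match is a description of the letters and shows no binding.

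Promoters of 4 helicase subunits and 2 polymerase subunits are printed because they hold the word and their genes carry the differences below. Each runs 5′ to 3′ on the gene's own strand, and capitals mark the E2F words. They lie at chr1:20820263-20820562 (minus strand) for Mcm3, chr8:75109259-75109558 (plus) for Mcm5, chr1:128359656-128359955 (minus) for Mcm6, chr5:138171834-138172133 (minus) for Mcm7, chrX:93632106-93632405 (minus) for Pola1 and chr12:69228141-69228440 (minus) for Pole2.
Mcm3: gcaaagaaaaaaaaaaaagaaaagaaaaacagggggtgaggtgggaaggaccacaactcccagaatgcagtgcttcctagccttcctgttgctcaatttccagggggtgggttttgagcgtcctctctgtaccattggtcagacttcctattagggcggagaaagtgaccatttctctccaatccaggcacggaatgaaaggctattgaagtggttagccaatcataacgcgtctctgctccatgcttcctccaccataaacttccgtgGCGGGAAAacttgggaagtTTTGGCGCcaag
Mcm5: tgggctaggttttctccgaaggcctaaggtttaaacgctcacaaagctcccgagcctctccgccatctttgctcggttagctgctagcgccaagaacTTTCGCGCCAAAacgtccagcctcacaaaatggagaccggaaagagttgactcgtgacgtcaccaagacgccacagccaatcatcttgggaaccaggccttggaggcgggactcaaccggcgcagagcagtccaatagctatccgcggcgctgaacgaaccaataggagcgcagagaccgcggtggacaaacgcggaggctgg
Mcm6: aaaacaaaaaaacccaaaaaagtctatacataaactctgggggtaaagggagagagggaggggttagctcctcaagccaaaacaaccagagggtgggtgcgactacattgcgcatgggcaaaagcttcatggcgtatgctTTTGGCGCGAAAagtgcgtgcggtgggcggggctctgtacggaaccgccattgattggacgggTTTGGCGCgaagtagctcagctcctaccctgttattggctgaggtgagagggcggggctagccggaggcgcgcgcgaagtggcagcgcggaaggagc
Mcm7: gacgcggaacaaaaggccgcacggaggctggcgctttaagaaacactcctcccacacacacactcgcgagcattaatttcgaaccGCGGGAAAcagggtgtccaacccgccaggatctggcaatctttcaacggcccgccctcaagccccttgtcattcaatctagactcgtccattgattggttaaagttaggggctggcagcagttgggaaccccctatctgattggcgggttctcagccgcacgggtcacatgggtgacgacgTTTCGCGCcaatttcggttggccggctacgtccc
Pola1: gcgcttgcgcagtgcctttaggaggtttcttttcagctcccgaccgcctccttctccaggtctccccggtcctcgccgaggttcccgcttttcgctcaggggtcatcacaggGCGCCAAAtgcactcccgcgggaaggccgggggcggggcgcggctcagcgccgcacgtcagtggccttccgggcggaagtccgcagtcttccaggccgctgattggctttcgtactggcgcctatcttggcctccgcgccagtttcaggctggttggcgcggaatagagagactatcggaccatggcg
Pole2: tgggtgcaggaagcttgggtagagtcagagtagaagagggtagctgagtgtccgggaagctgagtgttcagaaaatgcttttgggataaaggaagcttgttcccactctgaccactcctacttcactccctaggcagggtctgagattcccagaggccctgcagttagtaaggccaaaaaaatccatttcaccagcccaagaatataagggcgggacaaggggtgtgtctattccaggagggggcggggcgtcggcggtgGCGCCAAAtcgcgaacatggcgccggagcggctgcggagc
In Mcm6 there were 3 words, beginning at positions -110, -106 and -47 from the start, and the first pair overlapped. Mcm5 carried an overlapping pair too, beginning at -153 and -149. In Mcm7 the words began at -165 and at base 17 after the start, and in Mcm3 both lay after the start, at bases 20 and 39. Pola1 held its word at -138 and Pole2 at base 11 after the start.

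The CCAAT box, searched as CCAAT on both strands, stood in 25 of 42 promoters (59.5%) against 37.9% of all genes. The C/EBP palindrome TTGCGCAA was in 0 of 42 and in 0.185% of all genes, and its absence says only that these letters are not in this window.

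**Figure D1:**
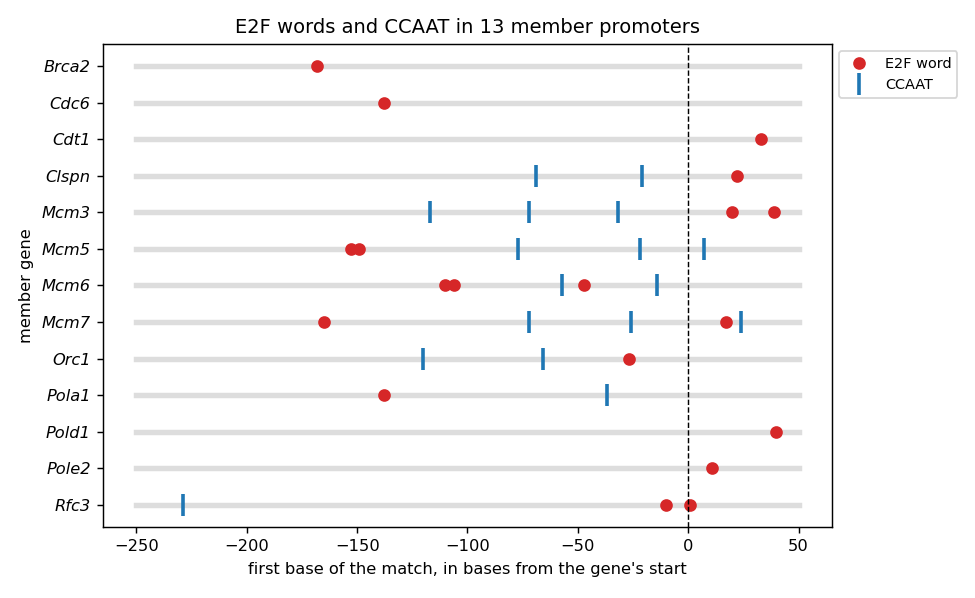
Positions of E2F words (red dots) and CCAAT (blue ticks) in the 13 promoters that hold an E2F word, with the first base of each match in bases from the gene's start (dashed line) on the horizontal axis and genes on the vertical axis. Mcm6 has 3 E2F words, and in Mcm3, Cdt1, Clspn, Pold1 and Pole2 they all lie after the start.

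As a check of the labels, Cebpb read 11.95 and 12.25 (log2 signal, replicates 1 and 2) in WT CD29hi and 11.83 and 12.18 in WT CD29lo. It read 8.60 and 9.38 in KO CD29hi and 9.23 and 8.89 in KO CD29lo, below every wildtype array; whether this probe set lies in the deleted part is not known, so it may check nothing. In wildtype, 9 of 10 basal markers were called higher in CD29hi and 7 of 11 luminal markers lower by limma, in the direction of the sort. Luminal transcripts were still read in CD29hi, where Krt8 and Krt18 lay between 11.62 and 12.48. Signals are on a log2 scale, and the background, the 95th percentile of 27 bacterial control probe sets, lay between 3.84 and 4.41 per array. Of the 52 genes with a probe set, 43 were above it on all 8 arrays. Correlation over probe sets between the arrays of 1 group was lowest in KO CD29lo, at 0.931. That pair and the WT CD29lo pair differed in fibroblast transcripts, whose 10 markers summed to between 3619 and 24305 linear signal units in KO CD29lo and between 11353 and 32653 in WT CD29lo.

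In CD29hi cells most replication genes stood lower in the knockout than in wildtype, but 0 of 51 passed limma at an adjusted p of 0.05. Over all genes 0.0137% passed. In 35 of the 51 both knockout arrays lay below both wildtype arrays (68.6%), as they did in 21.2% of all tested genes. In 2 genes, Dnmt1 and Ccne1, both knockout arrays lay above, as in 18.3% of all genes. The log2 difference was below 0 in 45 of 51 genes and in 51.6% of all genes, with a median of -0.72 against -0.02 and a range from -2.27 to 0.49. An unadjusted p under 0.05 was reached by 17 genes downward and 0 upward, against 4.72% and 3.12% of all genes. Leaving out each array in turn gave medians between -0.85 and -0.56. Luminal markers in CD29hi had a median knockout difference of -0.02 over 11 genes. By limma Elf5 (-3.19) had an unadjusted p under 0.05 downward, and Esr1 (0.89) and Foxa1 (0.96) upward. Of 5 tested blood cell markers Cd14 (-1.77) had such a p downward, and the median was 0.28. Basal, fibroblast and endothelial markers had 0 such genes, with medians of -0.11, 0.65 and -0.27. None of these markers passed, and their part in the result was not tested.

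The high level of these genes in wildtype CD29hi can be seen array by array. WT CD29hi replicate 2 held the highest value of 21 of the 51 genes and the lowest of 0, and WT CD29hi replicate 1 the highest of 8. Relative to each gene's mean, the median deviation was 0.33 and 0.60 in WT CD29hi but -0.07 and -0.26 in KO CD29hi. It was -0.04 and 0.07 in WT CD29lo against -0.16 and -0.26 in KO CD29lo. The samples are bulk RNA, in which fewer cells in S phase and less RNA per cell cannot be told apart. Markers of mitosis were also highest in WT CD29hi: their 12 tested genes were all lower in KO CD29hi without overlap, with a median of -3.28, and 0 passed limma. For CD29hi minus CD29lo in KO the replication genes had a median of 0.02, and these markers had a median of -0.60. Their summed signal was 2207 to 5898 in the WT CD29hi arrays and 438 to 606 in KO CD29hi. In CD29lo it was 597 to 944 in WT and 588 to 733 in KO. Of 13 such markers with a value, 13 were above background in both WT CD29hi arrays and 7 to 11 in the others, and their part in the result was not tested.

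**Figure D2:**
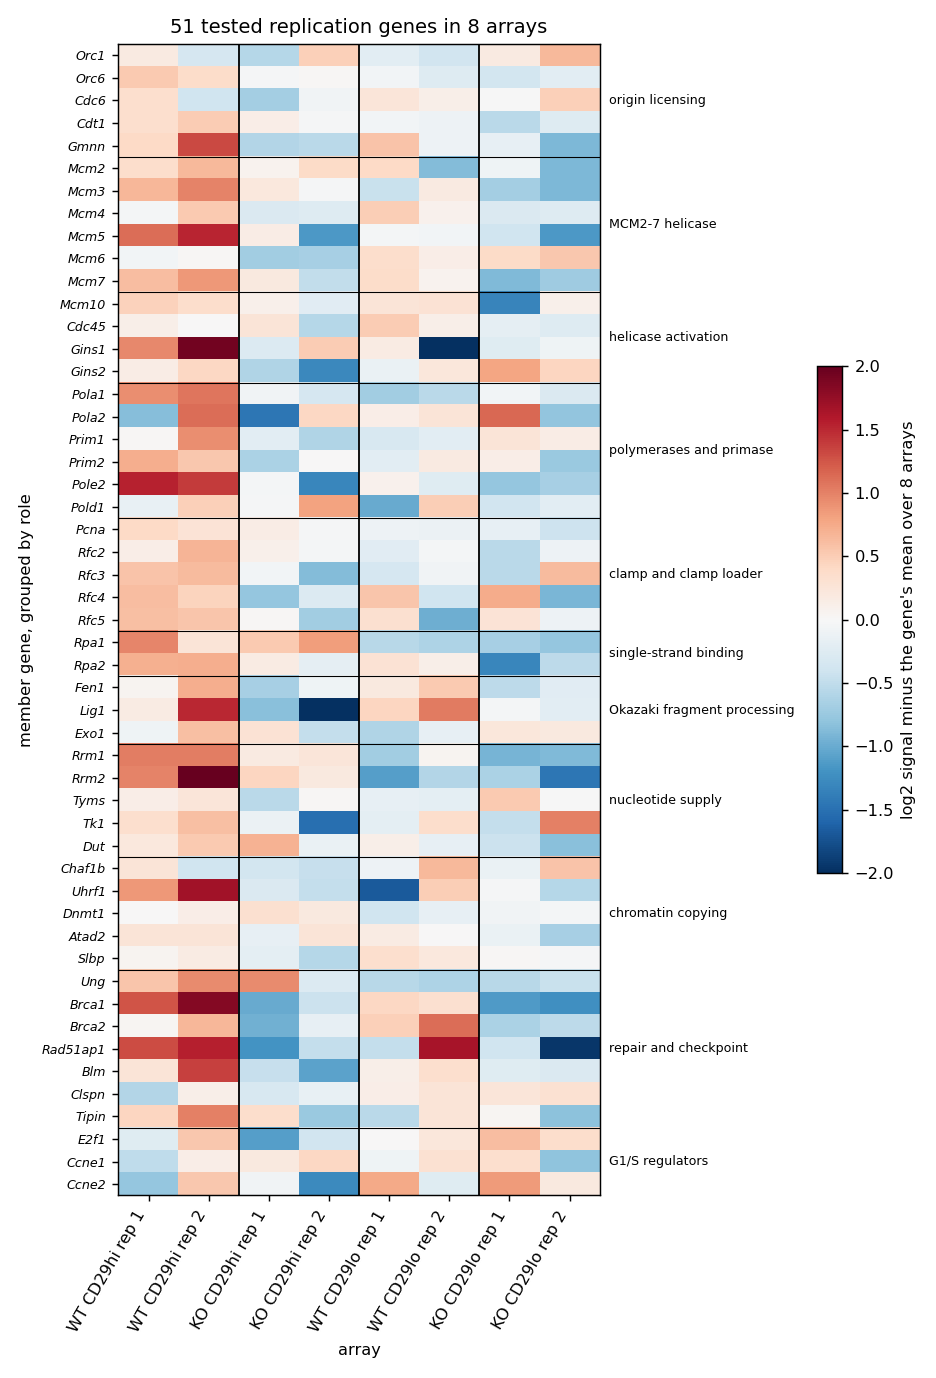
Log2 signal of the 51 tested replication genes (rows, by role) in the 8 arrays (columns), as the difference from the gene's mean over the 8 arrays; red is higher and blue lower, and colours end at 2 log2 units either side. The 2 WT CD29hi columns are red in most rows, with median deviations of 0.33 and 0.60.

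Origin licensing genes had a median of -0.37 in CD29hi, and 3 of 5 were lower in KO without overlap. Geminin, the inhibitor of relicensing, read 8.03 and 8.96 in WT and 7.04 and 7.1 in KO among the CD29hi arrays, and 8.2 and 7.53 in WT and 7.47 and 6.73 in KO among the CD29lo arrays. Both wildtype CD29hi arrays were above both knockout arrays, with a knockout minus wildtype difference of -1.43 ± 0.431 log2 units (± SE, as below; limma adjusted p = 0.458), and the same order held in CD29lo. Orc6, a subunit of the origin recognition complex, read 8.58 and 8.42 in WT and 8.02 and 8.07 in KO among the CD29hi arrays, and 7.99 and 7.79 in WT and 7.69 and 7.84 in KO among the CD29lo arrays. Its highest values were in WT CD29hi, with a knockout difference of -0.45 there and of -0.12 in CD29lo, where the groups overlapped. Cdt1, the loader of the helicase, differed by -0.37 and -0.32 in the 2 gates without overlap. A second Cdt1 probe set, above background on all arrays, gave -0.12 with overlap in CD29hi and 0.18 in CD29lo. Cdc6 (-0.35 and 0.06) overlapped in both gates. Orc1, the largest subunit of the origin complex, stood at 0.03 in CD29hi with overlap and at 0.72 in CD29lo, where both knockout arrays were higher.

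All 6 subunits of the MCM2-7 helicase had a difference below 0 in CD29hi, with a median of -0.70, and 5 of 6 showed no overlap. Mcm5 read 9.48 and 9.88 in WT and 8.51 and 7.2 in KO among the CD29hi arrays, and 8.32 and 8.3 in WT and 7.95 and 7.21 in KO among the CD29lo arrays. The wildtype CD29hi pair lay above every other array, and the knockout difference was -1.82 ± 0.451 (limma adjusted p = 0.321) in CD29hi and -0.73 in CD29lo. Mcm7 read 10.65 and 10.9 in WT and 10.24 and 9.54 in KO among the CD29hi arrays, and 10.4 and 10.11 in WT and 9.15 and 9.32 in KO among the CD29lo arrays. Here both gates differed without overlap, by -0.89 ± 0.256 and -1.02 ± 0.256, with limma adjusted p of 0.424 and 0.548. Mcm3 read 8.3 and 8.63 in WT and 7.85 and 7.62 in KO among the CD29hi arrays, and 7.19 and 7.82 in WT and 6.95 and 6.74 in KO among the CD29lo arrays. Its differences of -0.73 and -0.66 were of like size in both gates, and no overlap was seen in either. Another Mcm3 probe set above background on all arrays gave 0.77 with overlap in CD29lo, while others gave -0.91 and -0.68. The steadiest subunit was Mcm4, which read 9.24 and 9.8 in WT and 8.99 and 9.01 in KO among the CD29hi arrays, and 9.77 and 9.36 in WT and 8.99 and 9.02 in KO among the CD29lo arrays. The 4 knockout arrays of Mcm4 lay within 8.99 to 9.02, below all wildtype arrays.

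Mcm6 was the helicase subunit gene whose 2 gates had opposite signs, although no test compared it with its partners. It read 10.53 and 10.61 in WT and 9.89 and 9.92 in KO among the CD29hi arrays, and 10.93 and 10.71 in WT and 10.96 and 11.13 in KO among the CD29lo arrays. The knockout pair was the lowest of all in CD29hi (-0.66 ± 0.153, limma adjusted p = 0.307) and the highest of all in CD29lo (0.23), where neither difference passed. A second probe set of Mcm6, with all arrays above background, gave -1.17 and 0.59. Mcm2 was the subunit with overlapping groups in both gates (-0.27 in each). Its second probe set, with all arrays above background, gave -0.60 without overlap in CD29hi and -0.25 with overlap in CD29lo.

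Helicase activators had a median of -0.85 in CD29hi and 0.01 in CD29lo. Gins1, a GINS subunit, read 6.3 and 7.28 in WT and 5.07 and 5.86 in KO among the CD29hi arrays, and 5.51 and 2.37 in WT and 5.11 and 5.26 in KO among the CD29lo arrays. WT CD29hi was highest, but 1 wildtype CD29lo array at 2.37 lay far under its replicate, and the standard error was 0.906 for differences of -1.32 and 1.25. Gins2, another GINS subunit, read 6.19 and 6.47 in WT and 5.45 and 4.76 in KO among the CD29hi arrays, and 5.92 and 6.28 in WT and 6.84 and 6.48 in KO among the CD29lo arrays. In CD29hi both knockout arrays were lower (-1.23 ± 0.399, limma adjusted p = 0.492), and in CD29lo both were higher (0.56). Its second probe set differed by -0.93 and 0.68. Cdc45, which joins GINS and MCM2-7, read 6.06 and 5.96 in WT and 6.21 and 5.38 in KO among the CD29hi arrays, and 6.46 and 6.07 in WT and 5.77 and 5.69 in KO among the CD29lo arrays, with overlap in CD29hi (-0.21) and none in CD29lo (-0.54). A second Cdc45 probe set, above background on all arrays, gave -0.74 and -0.67, without overlap in either gate. Mcm10, a factor of origin firing, differed by -0.47 and -0.88, without overlap in either gate. In KO CD29lo replicate 1 it read 4.31, under that array's background of 4.41. Other Mcm10 probe sets, above background on all arrays, gave -1.4 and -0.71 in CD29hi without overlap. In CD29lo they gave 0.14 and -0.16, both with overlap.

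Among the polymerase and primase genes the median was -0.91 in CD29hi and -0.03 in CD29lo. Pole2, the second subunit of polymerase epsilon, read 8.14 and 8.0 in WT and 6.56 and 5.3 in KO among the CD29hi arrays, and 6.69 and 6.36 in WT and 5.83 and 5.93 in KO among the CD29lo arrays. The WT CD29hi pair stood more than 1 log2 unit above all other arrays, and its knockout difference was -2.14 ± 0.448 (limma adjusted p = 0.29), a fold of 4.41. In CD29lo the difference was -0.65 without overlap. Pola1, the catalytic subunit of polymerase alpha, read 7.91 and 8.06 in WT and 6.91 and 6.64 in KO among the CD29hi arrays, and 6.28 and 6.44 in WT and 6.93 and 6.69 in KO among the CD29lo arrays. WT CD29hi was again apart from the other 3 groups (-1.21 ± 0.315, limma adjusted p = 0.331), while in CD29lo both knockout arrays were slightly higher (0.45). Primase itself gave -0.88 and 0.47 for its catalytic subunit Prim1, without overlap in either gate, and -0.95 and -0.28 for Prim2, with overlap in CD29lo. Pold1, the catalytic subunit of polymerase delta, had differences of 0.23 and -0.04 with overlapping groups. Pola2, at or below background on part of the arrays, read between 2.42 and 5.0 and overlapped in both gates. The untested Pole read 3.65 and 4.9 in WT and 1.8 and 2.4 in KO among the CD29hi arrays, and 1.45 and 4.31 in WT and 3.21 and 2.48 in KO among the CD29lo arrays, with both knockout pairs at or below background.

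The clamp and its loader were lower without overlap in 5 of 5 genes in CD29hi, with a median of -0.92, and in 1 of 5 in CD29lo. Pcna, the sliding clamp, read 11.49 and 11.36 in WT and 11.23 and 11.06 in KO among the CD29hi arrays, and 10.98 and 10.97 in WT and 10.93 and 10.68 in KO among the CD29lo arrays. This was a small and orderly difference, -0.28 ± 0.14 in CD29hi and -0.17 in CD29lo, each without overlap (limma adjusted p = 0.715 and 0.86). Rfc3, a clamp loader subunit, read 7.48 and 7.55 in WT and 6.86 and 6.05 in KO among the CD29hi arrays, and 6.58 and 6.84 in WT and 6.37 and 7.55 in KO among the CD29lo arrays. Its CD29hi difference was -1.06 ± 0.466 (limma adjusted p = 0.64), and its CD29lo difference was 0.25 with overlap. A second probe set of Rfc3, above background on all arrays, gave -0.34 with overlap in CD29hi and -0.56 without overlap in CD29lo. Rfc4 read 8.23 and 8.05 in WT and 6.84 and 7.34 in KO among the CD29hi arrays, and 8.17 and 7.22 in WT and 8.35 and 6.69 in KO among the CD29lo arrays. Its replicates in CD29lo lay further apart than the groups, and its CD29hi difference was -1.05 ± 0.558. Rfc5 read 7.15 and 7.09 in WT and 6.56 and 5.85 in KO among the CD29hi arrays, and 6.87 and 5.57 in WT and 6.81 and 6.44 in KO among the CD29lo arrays. Both WT CD29hi arrays were above all others, with a difference of -0.92 in CD29hi and of 0.41, with overlap, in CD29lo. Rfc2 gave -0.37 without overlap and -0.19 with it.

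Replication protein A coats single-stranded DNA, and its subunit genes differed from each other. Rpa2 read 8.94 and 8.95 in WT and 8.39 and 8.05 in KO among the CD29hi arrays, and 8.52 and 8.35 in WT and 6.92 and 7.7 in KO among the CD29lo arrays. Both knockout pairs lay below the wildtype pairs, with a difference of -0.72 ± 0.325 in CD29hi and of -1.12 ± 0.325 in CD29lo (unadjusted p = 0.00811, limma adjusted p = 0.616). Rpa1 read 11.76 and 11.04 in WT and 11.31 and 11.62 in KO among the CD29hi arrays, and 10.22 and 10.17 in WT and 10.11 and 10.01 in KO among the CD29lo arrays. Here the gates lay further apart than the genotypes, whose differences were 0.07 with overlap in CD29hi and -0.14 without overlap in CD29lo.

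Genes that process the lagging strand had medians of -0.77 in CD29hi and -0.73 in CD29lo over 3 genes. DNA ligase 1 (Lig1), which seals Okazaki fragments, read 7.84 and 9.18 in WT and 6.84 and 5.64 in KO among the CD29hi arrays, and 8.11 and 8.71 in WT and 7.64 and 7.47 in KO among the CD29lo arrays. Both knockout CD29hi arrays were lower than all 6 other arrays, and the difference was -2.27 ± 0.539 (limma adjusted p = 0.307), a fold of 4.82. In CD29lo it was -0.85, also without overlap. Fen1, the flap endonuclease, read 9.34 and 10.01 in WT and 8.62 and 9.19 in KO among the CD29hi arrays, and 9.47 and 9.81 in WT and 8.75 and 9.06 in KO among the CD29lo arrays. Knockout arrays were below wildtype arrays in both gates by like amounts, -0.77 ± 0.313 and -0.73 ± 0.313. The exonuclease Exo1 read 4.54 and 5.23 in WT and 4.92 and 4.15 in KO among the CD29hi arrays, and 4.03 and 4.47 in WT and 4.86 and 4.82 in KO among the CD29lo arrays. Its groups overlapped in CD29hi (-0.35), and in CD29lo both knockout arrays were higher (0.59), at levels near the background. Its other probe sets, above background on 4 and 2 arrays, gave -0.44 and 0.99, and -1.94 and -1.11.

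Genes of nucleotide supply had a median of -0.81 in CD29hi and -0.20 in CD29lo. Rrm1, the large subunit of ribonucleotide reductase, read 9.72 and 9.72 in WT and 8.87 and 8.94 in KO among the CD29hi arrays, and 8.0 and 8.75 in WT and 7.76 and 7.81 in KO among the CD29lo arrays. The 4 groups followed each other without overlap, from WT CD29hi through KO CD29hi and WT CD29lo down to KO CD29lo. The knockout differences were -0.81 ± 0.291 and -0.59 ± 0.291. Rrm2, the small subunit made in S phase, read 8.63 and 9.77 in WT and 8.06 and 7.83 in KO among the CD29hi arrays, and 6.53 and 7.05 in WT and 7.0 and 6.18 in KO among the CD29lo arrays. Its knockout difference in CD29hi was -1.25 ± 0.46 (limma adjusted p = 0.56), while in CD29lo the groups overlapped (-0.20). Thymidine kinase Tk1 read 4.96 and 5.23 in WT and 4.5 and 3.11 in KO among the CD29hi arrays, and 4.43 and 4.97 in WT and 4.14 and 5.63 in KO among the CD29lo arrays. The KO CD29hi replicates straddled the background and lay below the WT pair (-1.29 ± 0.652), and in CD29lo the difference was 0.18 with overlap. Tyms, the thymidylate synthase gene, was close to background and differed without overlap in both gates, by -0.44 and 0.43. Dut, the dUTPase gene, gave -0.08 and -0.61.

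Genes that copy chromatin and its marks had a median of -0.35 in CD29hi and -0.06 in CD29lo. Uhrf1, which brings the maintenance methylase to hemimethylated DNA, read 7.26 and 8.07 in WT and 6.1 and 5.92 in KO among the CD29hi arrays, and 4.72 and 6.88 in WT and 6.37 and 5.83 in KO among the CD29lo arrays. The WT CD29hi pair was highest (-1.66 ± 0.665, limma adjusted p = 0.606), but a second probe set of Uhrf1 gave 0.18. Dnmt1, that methylase, had the smallest range of the 51 replication genes, 0.73, and read 10.91 and 11.04 in WT and 11.23 and 11.1 in KO among the CD29hi arrays, and 10.5 and 10.74 in WT and 10.83 and 10.87 in KO among the CD29lo arrays. It was the 1 gene higher in the knockout without overlap in both gates (0.19 and 0.23). Slbp, the histone mRNA binding protein, read 10.04 and 10.14 in WT and 9.79 and 9.42 in KO among the CD29hi arrays, and 10.32 and 10.19 in WT and 10.0 and 9.96 in KO among the CD29lo arrays. The knockout pairs were lower in both gates (-0.48 ± 0.19 and -0.27 ± 0.19). Chaf1b (-0.35 and -0.06) overlapped in both gates, and the chromatin factor Atad2 gave -0.21 with overlap and -0.48 without.

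Repair and checkpoint genes had a median of -0.92 in CD29hi and -0.48 in CD29lo. Brca1, a homologous recombination factor, read 7.57 and 8.15 in WT and 5.31 and 5.89 in KO among the CD29hi arrays, and 6.73 and 6.64 in WT and 5.18 and 5.09 in KO among the CD29lo arrays. In both gates every knockout array was more than 1 log2 unit below every wildtype array of that gate, with differences of -2.26 ± 0.381 in CD29hi and -1.55 ± 0.381 in CD29lo. The limma adjusted p was 0.192 and 0.548. Rad51ap1, another recombination gene, read 5.59 and 5.84 in WT and 3.08 and 3.8 in KO among the CD29hi arrays, and 3.8 and 5.93 in WT and 3.88 and 2.33 in KO among the CD29lo arrays. All 4 knockout arrays were at or below background, so wildtype was at least 3.53-fold higher in CD29hi (limma adjusted p = 0.523). In CD29lo 1 of the 2 wildtype arrays was at background too and the groups overlapped. Brca2, a tumour suppressor of the same repair pathway, differed by -0.92 without overlap in CD29hi and by -1.38 ± 0.448 in CD29lo. The Bloom helicase gene Blm gave -1.58 ± 0.513 in CD29hi and was at least 1.23-fold lower in CD29lo, where both knockout arrays were at background. The uracil glycosylase gene Ung read 7.83 and 8.23 in WT and 8.22 and 7.0 in KO among the CD29hi arrays, and 6.72 and 6.66 in WT and 6.73 and 6.84 in KO among the CD29lo arrays. It overlapped between genotypes in CD29hi, as 1 KO array lay at the level of WT, and its CD29lo difference was 0.09. Tipin, of the fork protection complex, differed by -0.91 without overlap and -0.25 with it, and the checkpoint adaptor gene Clspn stood at 0.00 and 0.08.

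The G1/S regulators showed no common direction. E2f1 itself read 4.41 and 5.2 in WT and 3.56 and 4.27 in KO among the CD29hi arrays, and 4.66 and 4.88 in WT and 5.28 and 5.01 in KO among the CD29lo arrays. It was lower in KO CD29hi (-0.89 ± 0.476, limma adjusted p = 0.743) and higher in KO CD29lo (0.37), each without overlap, at levels near the background. Its other probe sets differed from this: 1 above background on all arrays gave 0.20 with overlap and 0.49, and another gave -0.85 and -1.26. Cyclin E1 (Ccne1) read 6.13 and 6.78 in WT and 6.84 and 7.05 in KO among the CD29hi arrays, and 6.55 and 6.95 in WT and 6.98 and 5.84 in KO among the CD29lo arrays. The knockout pair was higher in CD29hi (0.49 ± 0.461) and overlapped in CD29lo (-0.34). Cyclin E2 (Ccne2) read 4.62 and 5.92 in WT and 5.32 and 4.12 in KO among the CD29hi arrays, and 6.14 and 5.15 in WT and 6.24 and 5.59 in KO among the CD29lo arrays. Replicates spread more than the groups, and the differences were -0.55 and 0.27.

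**Figure D3:**
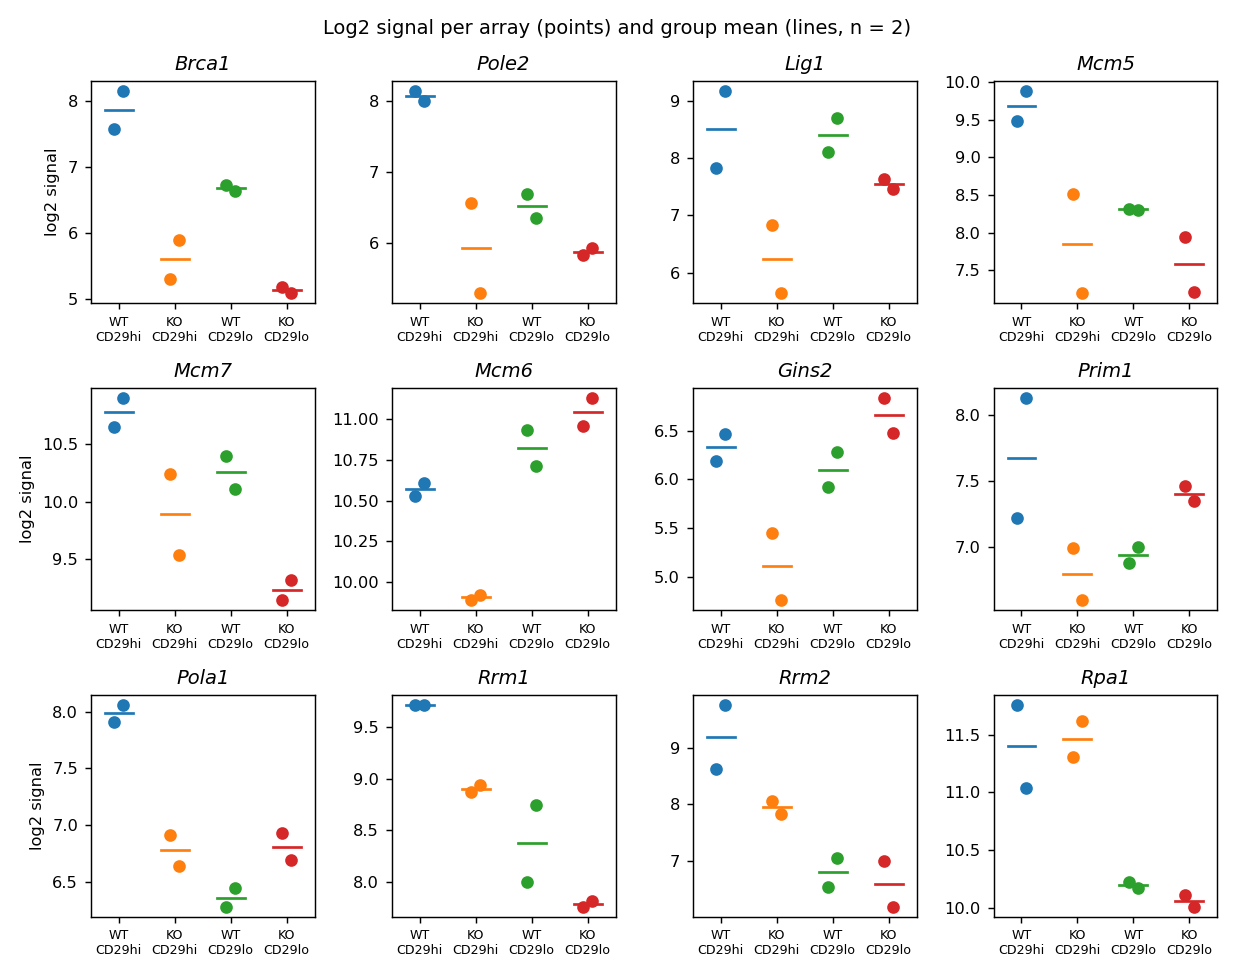
Log2 signal of 12 replication genes in each array (points) with the mean of the 2 arrays of a group (lines), each panel on its own log2 axis that does not start at 0. Pole2, Mcm5 and Pola1 are highest in both WT CD29hi arrays, and Mcm6, Gins2 and Prim1 are lower in KO than in WT in CD29hi and higher in CD29lo.

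In CD29lo cells the differences were smaller and ran both ways. Of 51 genes 0 passed limma (0.0137% of all genes did), and 5 had an unadjusted p under 0.05 downward against 4.26% of all genes. In 21 genes (41.2%) both knockout arrays lay below both wildtype arrays, against 19.6% of all genes, and in 10 both lay above, against 14.7%. The 21 became 13 where the mean of all probe sets of a gene was used. The median was -0.19 against -0.06 over all genes, and it was -0.29 without KO CD29lo replicate 1 or without WT CD29lo replicate 1. The smallest unadjusted p belonged to Brca1, Mcm7, Rpa2, Brca2 and Fen1, all of which were lower in CD29hi too. Fibroblast markers had a difference below 0 in 10 of 10, with a median of -1.40, but the groups overlapped in all 10 and 0 had an unadjusted p under 0.05 in limma. All 10 were above background in each of these arrays. Endothelial markers had a difference below 0 in 6 of 7, with a median of -1.16, and 3 of 7 were lower without overlap. By limma 2 of these 7, Tek (-2.25) and Esam (-2.52), had an unadjusted p under 0.05 and 0 passed. Their summed signal was 318 to 841 in KO CD29lo and 1176 to 1380 in WT CD29lo, with 5 to 7 of the 7 above background in KO. The part of either list in the result was not tested. Of 10 listed blood cell markers 5 were tested, and their median difference in CD29lo was 0.12. The difference was above 0 in 4 of them and below 0 in 1, and 0 had an unadjusted p under 0.05 in limma. Another blood cell marker, Ptprc, was too dim to be tested. It lay between 2.75 and 6.15 in CD29lo, with both knockout arrays under both wildtype arrays. The part of blood cell markers in the result was not tested.

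Averaged over both gates, 0 of 51 genes passed limma, against 0.0685% of all genes, and 15 had an unadjusted p under 0.05 downward against 5.84%. The smallest adjusted p was that of Brca1, 0.0751, at -1.91 ± 0.269. Behind it came Mcm7 (-0.95 ± 0.181, limma adjusted p = 0.182), Pole2 (-1.39, 0.246), Lig1 (-1.56, 0.285), Rpa2 (-0.92, 0.288) and Mcm5 (-1.28, 0.289). Knockout arrays lay below wildtype arrays in both gates without overlap in 17 genes, against 5.56% of all genes, and above them in 1, Dnmt1, against 3.85%. The genes lower in both included Cdt1, Gmnn, Mcm3, Mcm4, Mcm5, Mcm7, Pcna, Fen1, Lig1, Rrm1 and Slbp. Mcm10 was among the 17 too. Cdt1, Mcm3 and Mcm10 each had another probe set, above background on all arrays, with a positive difference in CD29lo. By sign alone, 30 genes were lower in both gates, 15 in CD29hi only, 3 in CD29lo only and 3 in neither.

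**Figure D4:**
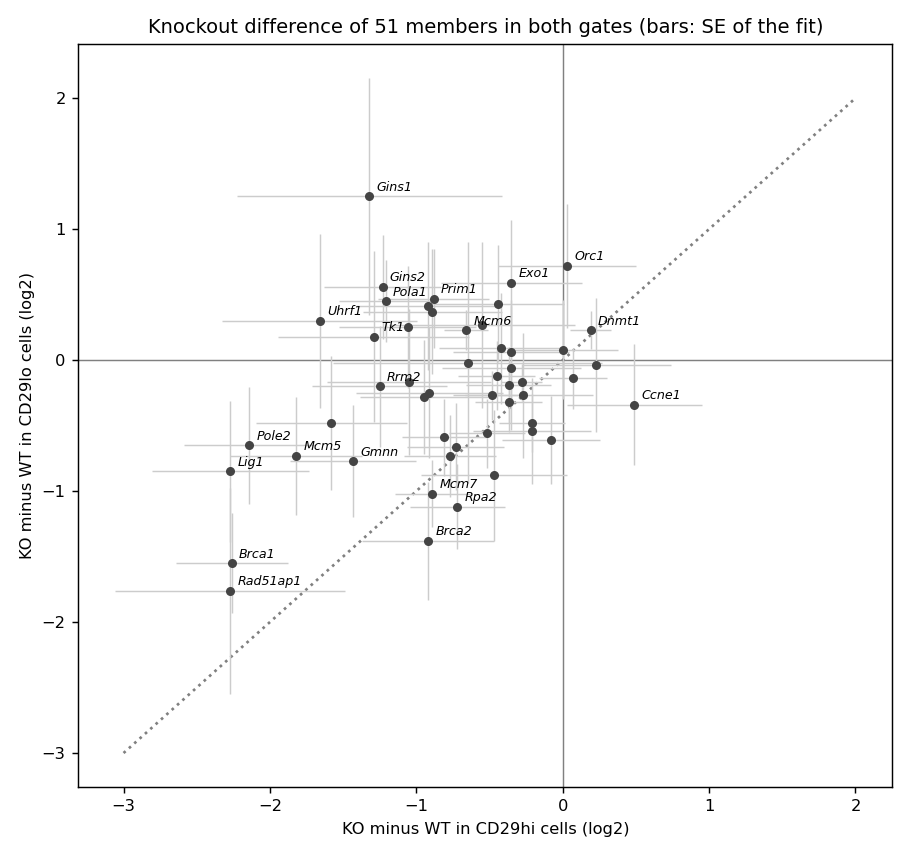
Log2 difference between KO and WT of the 51 tested genes in CD29hi (horizontal) and CD29lo (vertical), with standard errors of the limma fit as bars and the line of equal differences dotted. Brca1, Rad51ap1, Lig1 and Mcm5 lie in the lower left, and Gins1, Gins2, Pola1, Prim1 and Mcm6 in the upper left.

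The test of whether the knockout difference depended on the gate is the interaction term, and 0 of 51 replication genes and 0 of 14598 genes passed it. Unadjusted, 5 replication genes had p under 0.05 in limma with a more negative difference in CD29hi, against 2.46% of all genes. They were Mcm6 (-0.89 ± 0.216), Pola1 (-1.66 ± 0.445), Gins2 (-1.78 ± 0.565), Prim1 (-1.34 ± 0.536) and Pole2 (-1.50 ± 0.634). Each had a limma adjusted p of 0.961. The median over the 51 genes was -0.51 against 0.04 over all genes, and it was -0.29 without KO CD29lo replicate 1. The gates were therefore not shown to differ in any of these genes.

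Between the gates of wildtype glands, replication genes were more often higher in CD29hi than in CD29lo. This comparison shares the WT CD29hi arrays with the knockout comparison in CD29hi, so a high reading of those arrays enters both. By limma 4 of 51 genes were called higher and 0 lower, while 3.96% of all genes were called higher and 4.23% lower. They were Rrm2 (2.41 ± 0.46, limma adjusted p = 0.016), Rpa1 (1.21 ± 0.232, 0.0164), Pola1 (1.62 ± 0.315, 0.0168) and Rrm1 (1.34 ± 0.291, 0.0262), in which both CD29hi arrays exceeded both CD29lo arrays. No overlap, with CD29hi higher, was seen in 28 genes (54.9%), against 26.0% of all genes, and with CD29hi lower in 4, again against 26.0%. The median was 0.50 against 0.00, and it was 0.29 without WT CD29hi replicate 2. Mitosis markers had the same order, with 12 of 12 higher in CD29hi without overlap, 4 of them called, and 7 of 10 fibroblast markers were called lower in CD29hi. Their part in the result was not tested.

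Each of these 4 calls was lost in some fits that left out 1 array. Such a fit leaves 1 array in a group, so a lost call cannot show that a single array carried it. With an array left out, the difference was 1.54 to 1.71 for Pola1 and 0.85 to 1.56 for Rpa1. It was 0.97 to 1.72 for Rrm1 and 1.84 to 2.98 for Rrm2. Pola1 lost its call without any 1 of the 4 wildtype arrays, with a limma adjusted p of up to 0.103. Rpa1 lost it without WT CD29hi replicate 1 (0.0679) or without either WT CD29lo array (0.0784 and 0.0765), and Rrm2 without WT CD29hi replicate 2 (0.105) or WT CD29lo replicate 1 (0.0977). Rrm1 lost it without either KO CD29hi array (0.052 and 0.0514), either WT CD29hi array (0.119 and 0.124) or WT CD29lo replicate 1 (0.131). Pola1 also lost its call with the mean of all probe sets, Rpa1 without a trend, and Rrm1 without a trend or with only the arrays compared. The count was 1 without WT CD29hi replicate 1 (Rrm2) or replicate 2 (Rpa1), and none of the 4 was called without WT CD29lo replicate 1. Gins1 (2.85 ± 0.906), Uhrf1 (1.86), Pole2 (1.54), Mcm5 (1.37), Ung (1.34) and Brca1 (1.18) were higher in every CD29hi array than in every CD29lo array without passing. Some of them passed limma in other fits: Gins1 without WT CD29lo replicate 1 (4.42, adjusted p = 0.014), where it was the 1 gene called, and Uhrf1 without WT CD29lo replicate 2 (2.94, 0.024). Without the other WT CD29lo array Gins1 stood at 1.28 and Uhrf1 at 0.79. Mcm5 (limma adjusted p = 0.0294) and Pole2 (0.0417) passed with only the arrays compared, and Pole2 also without either KO CD29hi array (0.0467 and 0.0431). Mcm6 (-0.25), Cdc45 (-0.26), Slbp (-0.16) and Clspn (-0.43) were the 4 in the other order.

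In knockout glands the replication genes showed no common order between the gates. The median was 0.02 against 0.03 over all genes, 16 genes were higher in CD29hi without overlap (31.4%, against 30.4%) and 11 lower (against 26.8%). By limma 2 were called higher, Rpa1 (1.41 ± 0.232, limma adjusted p = 0.00618) and Rrm1 (1.12 ± 0.291, 0.0376). Another 2 were called lower in CD29hi, Mcm6 (-1.14 ± 0.153, limma adjusted p = 0.00259) and Gins2 (-1.55 ± 0.399, 0.036). Over all genes 7.41% were called higher and 6.66% lower. Rpa1 and Mcm6 kept their calls whichever array was left out, with limma adjusted p of at most 0.0475 and 0.0262. Gins2 lost its call in all 8 such fits (up to 0.182). Rrm1 lost it without any 1 of the 4 KO arrays or of the 2 WT CD29hi arrays (up to 0.161), when its probe sets were averaged (0.206), without a trend (0.06) and with only the arrays compared (0.0564). Rpa2 was called higher without KO CD29lo replicate 2 (1.30, limma adjusted p = 0.0442). The count of called genes was 2 without either KO CD29hi array, KO CD29lo replicate 1 or either WT CD29hi array. G1/S regulators E2f1 (-1.23) and Ccne2 (-1.20) were lower in KO CD29hi without overlap and did not pass.

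**Figure D5:**
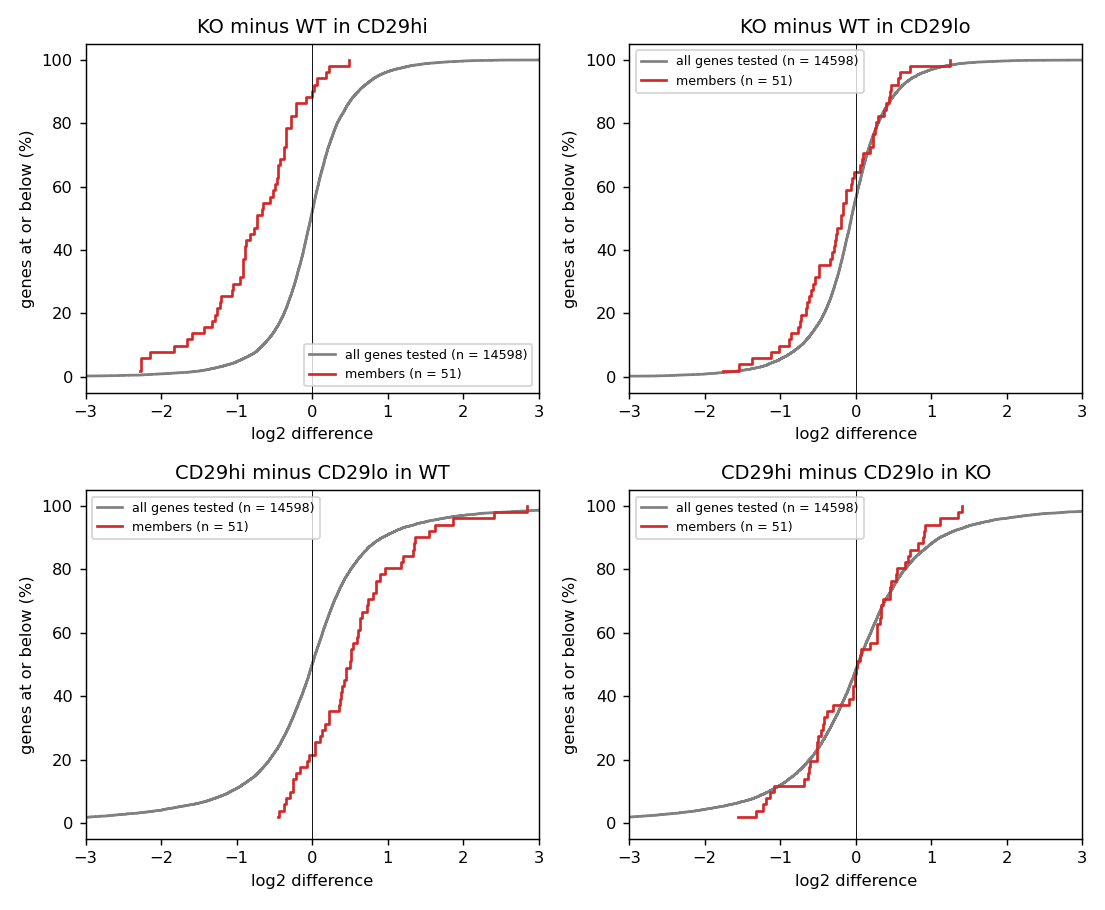
Share of genes at or below a given log2 difference, for the 51 tested replication genes (red) and all 14598 tested genes (grey), in 4 comparisons. The red line lies left of the grey one for KO minus WT in CD29hi (medians -0.72 and -0.02), right of it for CD29hi minus CD29lo in WT (0.50 and 0.00), and close to it in the other 2 panels.

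Promoters with and without an E2F word belonged to genes with like differences. In CD29hi the knockout median was -0.73 over the 13 genes with a word and -0.68 over 28 tested genes without one, and in wildtype the median between gates was 0.50 and 0.45. Mcm6, with 3 words, and Mcm5, with 2, lay at -0.66 and -1.82.

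Other genes of the same machinery, chosen as a list of 35 of which 31 were tested, gave a smaller median. In CD29hi 24 of 31 had a knockout difference below 0, 17 were lower without overlap (54.8%), 0 passed limma and the median was -0.37. Among them Dbf4, the activator of the Cdc7 kinase, stood at -1.50 ± 0.37 (limma adjusted p = 0.32). The 16 genes of E2F factors, their partners and pocket proteins had a median of -0.05, with 5 lower (31.2%) and 3 higher (18.8%) without overlap. Over all genes the shares without overlap were 21.2% lower and 18.3% higher. Of the mitosis markers the smallest p values belonged to the spindle motor gene Kif11 (-3.88 ± 0.502, limma adjusted p = 0.104), the spindle factor gene Tpx2 (-3.56, 0.169) and Birc5 (-3.41, 0.169).

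More than 1 probe set above background on all arrays, the chosen one included, was present for 21 of the replication genes. Mcm10 was not counted, because its chosen probe set was above background on 7 arrays, though others were above it on 8. All such probe sets of a gene had the same sign in 19 of 21 for the knockout difference in CD29hi, the exceptions being Rpa1 and Uhrf1. Such probe sets shared their sign in 14 of 21 in CD29lo, the exceptions being Atad2, Ccne1, Cdt1, Mcm3, Prim2, Rfc3 and Rrm2. For the gate difference they did so in 17 of 21 in wildtype and in 11 of 21 in knockout. Of the chosen probe sets 13 carry the suffix x_at or s_at, which marks probes that can match more than 1 transcript, among them those of Mcm2 to Mcm7, Gins2 and Rrm2.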

How the data were processed

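Per the labels' protocols, RNA of 4 sorted groups (2 arrays each) was isolated with the Arcturus PicoPure kit, amplified with a NuGEN FFPE kit and hybridised as biotin-labelled cRNA. The authors deposited 1 value per probe set on a log2 scale, read as such from values between 0 and 14.42; normalization and software: not given in the sources used here. Array medians lay between 5.45 and 5.67, and no further normalization was applied. No column was left unused, and the number of arrays limits the precision.

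Probe sets were named through the platform's annotation of 2016: 34958 of 45101 carry 1 gene, 932 several and 9211 none, and 34754 matched a RefSeq gene ID. Each gene was taken at its brightest probe set (116 probe sets for the 52 genes), and genes under the 25th percentile (3.51) were not tested. The background per array was chosen after the values had been seen; if neither array of a group exceeded it, folds are bounds against it ("at least").

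limma 3.58.1 in R 4.3.3 fitted the 4 groups without a block and with a variance trend (4 residual and 4.31 prior degrees of freedom), and p was adjusted by Benjamini-Hochberg over 14598 genes within each of 6 two-sided contrasts. The fit was tested on simulated data. Groups are said not to overlap where every array of 1 lies beyond every array of the other. With 2 arrays against 2, p-values measure the spread between these pools only.

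The replication genes, their roles, the comparison lists and the tests were chosen with earlier results of these data known. Values in every array are given for genes called in any contrast, for the 2 of each role with the largest differences (KO against WT in CD29hi, and gates in WT) and for the 3 with the smallest range, of other lists for up to 3 with the smallest p. Alternatives were a filter at the 50th percentile or none, quantile normalization, the mean of all probe sets, no trend, values raised to 4, a fit on only the arrays compared, a replicate block, a random block for the pool, and each array left out. Counts without overlap under these settings were added after seeing the data. Figures used matplotlib 3.10.9 in Python 3.11.15.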

Additional observations from a re-analysis of the deposited data

Results flagged for a closer look

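In 6 genes both knockout arrays were lower than both wildtype arrays in CD29hi and higher than both in CD29lo, so that the gates pointed in opposite directions. Among them were: Pola1 (interaction of -1.66 on the log2 scale, limma unadjusted p = 0.00541), Prim1 (-1.34, 0.0355) and the GINS subunit gene Gins2 (-1.78, 0.0128). The others were the helicase subunit gene Mcm6 (-0.89, 0.00307), the thymidylate synthase gene Tyms (-0.88, 0.201) and E2f1 (-1.26, 0.0959). After adjustment over all genes by limma none of the 6 passed, with adjusted p of 0.961 or 0.964, so the difference between the gates was not established by the test. Tyms and E2f1 were near the background. For Mcm6, Gins2 and Prim1 a second probe set above background on all arrays gave the same pair of signs. For E2f1 such a probe set gave 0.20 in CD29hi and 0.49 in CD29lo. The other 3 probe sets of Tyms, above background on 1 to 5 arrays, gave -0.19 and -0.54, 0.68 and -0.75, and 1.66 and -1.24.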

How the results depend on the processing

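The counts of replication genes called between genotypes (0 in CD29hi, 0 in CD29lo, 0 averaged, 0 in the interaction) were the same under all 9 settings and all 8 fits that left out 1 array. The median in CD29hi lay between -0.73 and -0.67 over the 9 settings and between -0.85 and -0.56 with an array left out. The interaction median was -0.23 under a filter at the 50th percentile, -0.66 with values raised to 4, and -0.57 to -0.29 with an array left out. In wildtype the 4 genes called between gates became 2 without a trend, 5 with only the arrays compared and 1 to 4 with an array left out, and the median lay between 0.29 and 0.60. In knockout the 4 became 2 with only the arrays compared and 2 to 3 with an array left out. The median there was 0.19 under the stricter filter and -0.04 to 0.18 with an array left out. With the mean of all probe sets, 13 genes instead of 21 were lower without overlap in CD29lo. Pola2, Chaf1b and Rad51ap1 were not tested then, but none of them was among the 21. The cause of these changes was not tested.

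With a replicate block the counts were 0, 0, 0, 0, 4 and 4 and the medians -0.72, -0.19, -0.35, -0.51, 0.50 and 0.02, in the order CD29hi, CD29lo, averaged, interaction, wildtype gates and knockout gates, so the block changed no count here. Correlations of same-numbered deviations ranged from 0.006 to 0.321 over the 6 pairs of groups, so the numbers were not taken as pairs. Signals near the background limit what can be said of Rad51ap1, Tyms, Tk1, Pola2, Blm, Exo1 and E2f1, and Pole and Chaf1a have no test.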
